A study of Sus scrofa with 70 samples.

Results

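INSL3 and the relaxin family receptors RXFP1 and RXFP2 were followed through 5 organs of the boar, namely the testis with the epididymis and the prostate, vesicular and bulbourethral glands. These 3 genes were taken by name from the 35680 genes that the RNA-seq table yields when transcripts are summed by gene name, and their long-read isoforms were taken from the Iso-seq table by gene identifier. The pigs were of the Banna mini-pig inbred line (BMI) and the Diannan small-ear breed (DSE), all adult males of 12 months, with no treatment or genetic change named in the labels. Each breed and gland had 3 RNA-seq libraries and 1 Iso-seq library, which gave 30 and 10 libraries. The labels number the libraries but do not say whether they came from separate animals, and the study's methods name separate tissue samples for the 30 RNA-seq libraries without tying them to animals, so p-values measure only the spread between these libraries, which may be technical.

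INSL3 is a small peptide hormone of the insulin and relaxin family that Leydig cells, the steroid-producing cells of the testis, secrete, and it is best known for its role in the descent of the fetal testis. It acts through RXFP2, a receptor with leucine-rich repeats that couples to G proteins and raises or lowers cAMP, and in the adult testis RXFP2 has been found on Leydig cells and germ cells. RXFP1 is the related receptor of relaxin, which acts on connective tissue, smooth muscle and blood vessels. Both receptors belong to the same receptor class as the gonadotropin receptors.

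INSL3 lies on chromosome 2 of the pig genome Sscrofa11.1, on the forward strand, from 59929584 to 59931219, and its annotated transcript (Ensembl ENSSSCT00000015173) has 2 exons and 761 bp. RXFP1 lies on chromosome 8 from 47473788 to 47601357 with 4 annotated transcripts of 16 to 18 exons, and RXFP2 on chromosome 11 from 8282517 to 8321020 with 5 annotated transcripts of 13 to 18 exons. The 250 bases before the INSL3 start are shown because this was among the genes with the highest levels in the testis. Capitals mark letters of the motifs AAGGTC, a site bound by the steroidogenic factor NR5A1, and AGATAA, a site of the GATA type, which were searched on both strands together with TATAAA and did not overlap each other.
INSL3, 250 bases before the start, chr2:59929334-59929583, forward strand: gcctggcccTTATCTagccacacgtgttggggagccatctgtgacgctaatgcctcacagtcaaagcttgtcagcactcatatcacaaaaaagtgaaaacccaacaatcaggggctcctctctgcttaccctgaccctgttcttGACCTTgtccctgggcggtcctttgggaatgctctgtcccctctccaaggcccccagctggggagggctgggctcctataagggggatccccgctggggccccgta

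The window held 1 AAGGTC and 1 AGATAA, both on the reverse strand, with their leftmost bases at positions -106 and -241 counted from the start, and no TATAAA. Of 19559 windows of the same length before protein-coding genes of the RefSeq annotation of Sscrofa11.1, 9.19% held AAGGTC, 8.08% AGATAA and 9.77% TATAAA. RXFP1 had 1 AAGGTC and RXFP2 had none of the 3 motifs. These matches describe letters, not bound sites.

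Some libraries stood apart. Across all genes tested, DSE testis replicate 2 correlated with the other testis libraries at a mean r of 0.907, against 0.956 to 0.965 for the others, and its highest r with a library of another gland was 0.685 against at most 0.542. BMI prostate replicate 2 correlated with its own gland at 0.929 and with a vesicular gland library at 0.968. The epididymis libraries were the most varied, with a lowest mean r of 0.871 in DSE replicate 1. The study lists this library with the lowest median transcript integrity, a measure of RNA quality, of all RNA-seq libraries. The main results that rest on these libraries are given with and without them. RNA-seq levels are given as TPM, a length-corrected share of each library, which keeps no depth. The full-length reads counted for isoforms summed to between 231413 and 458697 per Iso-seq library. The study lists more full-length reads for each library than were counted for isoforms.

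INSL3 was a testis transcript. Its level in the testis was 11447, 12257 and 12008 TPM in BMI and 16566, 42359 and 23381 TPM in DSE, which placed it between the first and the fifth of all genes and made up 1.14% to 4.24% of all TPM of a library. In the epididymis it was at 0.511, 2.91 and 1.76 TPM in BMI, and in DSE it was listed at 0 in replicates 1 and 2 and was at 0.873 TPM in replicate 3. In the other 3 glands no library reached 1 TPM, and the highest value was 0.853 TPM in a DSE prostate library. All 6 testis libraries thus stood above all 24 others, a pattern seen for 23.8% of the 19911 genes tested.

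On the log2(TPM + 1) scale, INSL3 was 13.70 ± 0.17 (SE) higher in the testis than in the mean of the other 4 glands (limma adjusted p = 1.4e-26). Genes were called where the adjusted p was below 0.05 and the difference at least 1 on this scale, and 34.5% of all genes were called higher in the testis and 47.3% in either direction. The median of all genes moved by 0.31 in the same direction. INSL3 reached 1 TPM in the 6 testis and 2 epididymis libraries alone, so it entered this fit through the testis, where it had to be high. Without DSE testis replicate 2 the INSL3 difference was 13.51, and with BMI or DSE alone it was 13.04 or 14.35. The lower values of INSL3 in each other gland, by 2.88 to 3.80 against a mean that holds the testis, carry no further information.

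**Figure D1:**
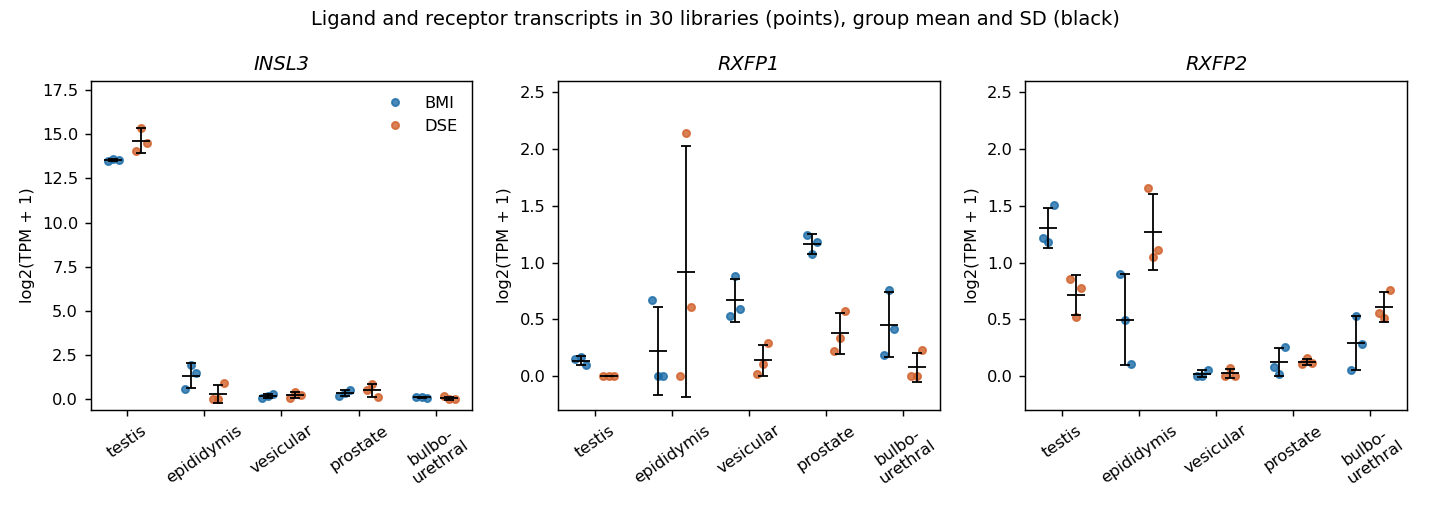
Levels of INSL3, RXFP1 and RXFP2 as log2(TPM + 1) in the 30 RNA-seq libraries, by gland and breed, with 1 point per library and the mean and SD of each group of 3 in black (the INSL3 axis has another scale). INSL3 lies above 13 in the testis libraries and below 2 elsewhere, whereas every receptor value lies below 2.2 in every gland.

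Among the glands with little INSL3, the order by mean log2(TPM + 1) was epididymis (0.82), prostate gland (0.43), vesicular gland (0.21) and bulbourethral gland (0.09). Over both breeds no neighbours among these 4 differed beyond their spread. The largest step, between epididymis and prostate gland, was 0.39 with a 95% interval from -0.06 to 0.84 (limma adjusted p = 0.15). With BMI libraries alone this step was 0.999 (limma adjusted p = 0.00933), just under the size for a call, and with DSE libraries alone it had the other sign (-0.21, limma adjusted p = 0.772).

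In the Iso-seq libraries INSL3 was found in the testis as 1 isoform, PB.10433.1. It had 94 full-length reads in BMI and 214 in DSE, and none in the 8 libraries of the other glands. There a count of 0 allows between 6.54 and 13.0 RPM. This unit scales full-length reads to the summed isoform counts of their library, not to all its full-length reads. INSL3 was at 207 RPM in BMI (Wilson 95% interval 169 to 253) and 467 in DSE (409 to 534), a DSE to BMI ratio of 2.26. These intervals cover counting error only. There was 1 Iso-seq library per breed, so the difference has no replicate check. The deposited total for this isoform was 2 reads, whereas the library columns sum to 308, and the library columns were used.

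The long-read isoform differed from the annotated transcript after the second exon. PB.10433.1 was 2302 bp long with 3 exons, began 1 base before the annotated start, kept the first intron, extended the second exon to 59932130 and joined it to a last exon from 59934288 to 59934916. It ended 3697 bp beyond the annotated end. The authors' annotation gave it an open reading frame of 131 codons and predicted nonsense-mediated decay, the removal of transcripts whose stop codon lies upstream of a junction. The letters at its splice sites follow, with the first and last 2 bases of each intron in capitals, followed by the bases after its end, with A in capitals.
First intron, left end, chr2:59929776-59929795, forward strand: ggaggcgaccGTgagtgggg
First intron, right end, chr2:59930651-59930670, forward strand: ttgtccccAGgtgaactgct
Second intron, left end, chr2:59932121-59932140, forward strand: gctatttcttGGgccgctct
Second intron, right end, chr2:59934278-59934297, forward strand: cctagcctGGgaacctccat
After the end of PB.10433.1, chr2:59934917-59934936, forward strand: AAAAAAAAtAAAtAAAAAtt

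The first intron thus had the usual GT and AG ends, whereas the second had GG at both ends and was listed by the authors as not canonical. The bases after the end were 80% A in the deposited table, a share that 18.6% of all 110996 isoforms reached, and no polyadenylation motif was listed. Template switching was not marked for it. Whether priming inside an A-rich stretch shaped this end was not tested.

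**Figure D2:**
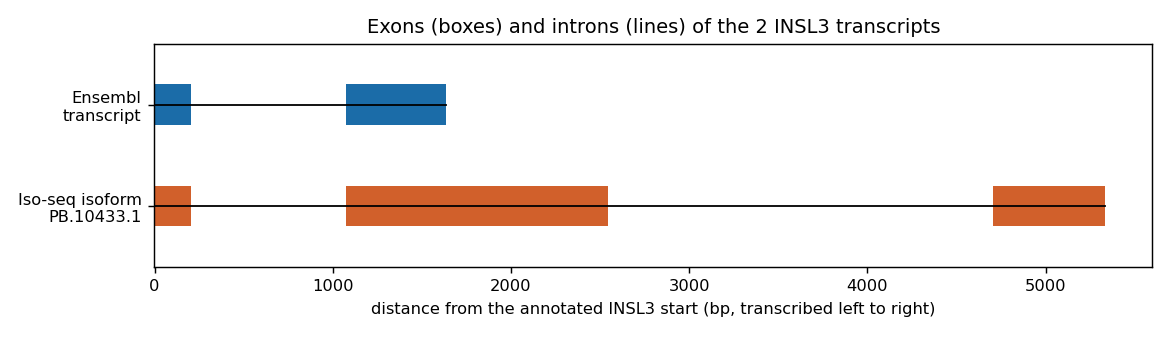
Exons (boxes) and introns (lines) of the annotated INSL3 transcript of 761 bp and of the Iso-seq isoform PB.10433.1 of 2302 bp, by distance in bp from the annotated start. They share the first intron, and the isoform runs 3697 bp further.

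In the short reads, the annotated transcript carried nearly all INSL3 of the testis. Its share of INSL3 TPM was 99.7% ± 0.198 (SD, n = 6), and PB.10433.1 had 0.321% ± 0.198, with levels of 19.1 to 108 TPM. No Iso-seq read was assigned to the annotated transcript. It is 761 bp long, and only 0.769% of the 110996 Iso-seq isoforms were shorter than that, with a median length of 3316 bp. The part of transcript length in this was not tested.

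Outside the testis the transcripts are given by their summed TPM alone, since in the vesicular, prostate and bulbourethral glands no library reached 1 TPM of INSL3 and the shares rest on few reads. Of the little INSL3 in the vesicular, prostate and bulbourethral glands, PB.10433.1 made up 67.8%, 67.0% and 67.8% of the summed TPM, and the annotated transcript was above 0 in 1 of 6 libraries of each of these glands. In the epididymis the annotated transcript made up 99.4% of the summed TPM and was above 0 in 4 of 6 libraries. The exons of PB.10433.1 overlapped 8 Iso-seq isoforms of B3GNT3, a gene on the opposite strand for a sugar-transferring enzyme, by 605 to 793 bp. The highest level of these isoforms in any library ran from 0.198 to 3.61 TPM. B3GNT3 as a whole was at 54.6 ± 10.1 TPM (SD, n = 6) in the vesicular gland and 84.8 ± 46.1 TPM in the prostate gland. It was at 8.26 ± 3.82 TPM in the bulbourethral gland, 6.73 ± 5.05 in the epididymis and 4.15 ± 1.55 in the testis. The sources used here do not say that the short reads were counted by strand, so reads of these genes may not be told apart there, and the part of B3GNT3 in these values was not tested.

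**Figure D3:**
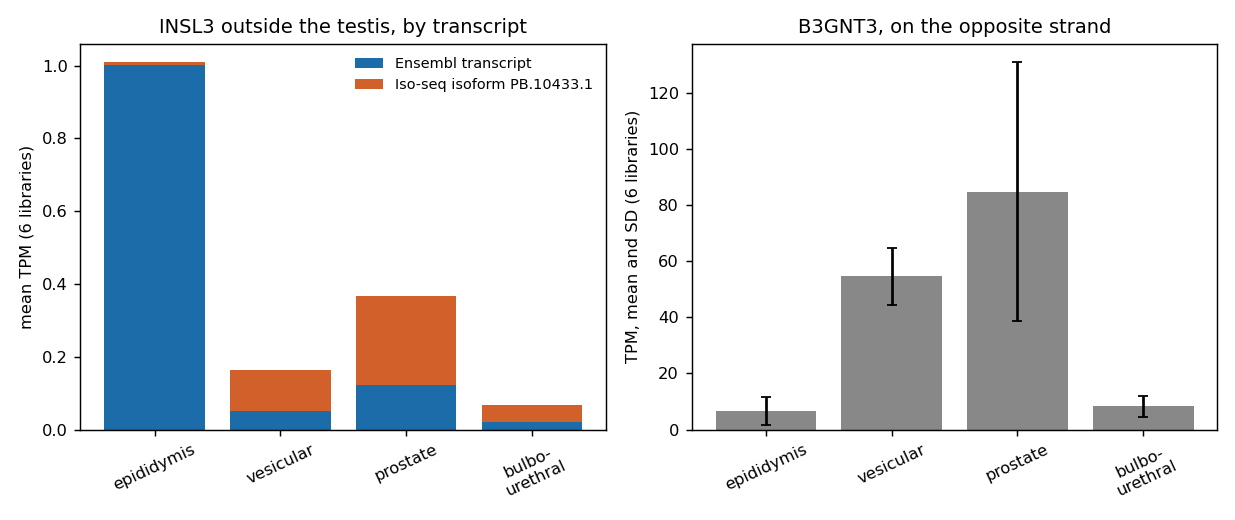
Left, mean INSL3 TPM over 6 libraries in the 4 glands other than the testis, split into the annotated transcript and PB.10433.1. Right, TPM of B3GNT3 (mean and SD, n = 6) in the same glands. The isoform makes up most INSL3 TPM in the vesicular, prostate and bulbourethral glands, and B3GNT3 is highest in the vesicular and prostate glands.

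INSL3 was higher in the testis of DSE than of BMI in every library, yet the difference did not pass the test over all genes. The lowest DSE value (16566 TPM) lay above the highest BMI value (12257 TPM), as for 7.69% of the 16414 genes tested in the testis, and BMI lay above DSE for 17.0%. Mean levels were 11904 ± 415 TPM (SD, n = 3) in BMI and 27436 ± 13366 TPM in DSE, a ratio of 2.30. BMI minus DSE was -1.09 ± 0.35 (SE) on the log2 scale, with a 95% interval from -1.90 to -0.29 (limma adjusted p = 0.257, unadjusted p = 0.0143). Of all genes, 0.585% were called between the breeds in the testis. The exact permutation test gave p = 0.10, the smallest two-sided value that 3 against 3 libraries allow. Without DSE testis replicate 2 the difference fell to -0.73 (limma adjusted p = 0.153). With 1 fit over all glands it was called (limma adjusted p = 0.0288), as 1 of 945 genes called there, against 96 in the fit of the testis alone.

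The breed difference of INSL3 in the testis was also set against that in the other 4 glands. The difference of differences was -1.31 ± 0.34 (SE; limma adjusted p = 0.0246), and 3.82% of all genes were called in this comparison, 0.809% with BMI lower. The other glands were near 0 TPM, so this value mostly repeats the testis difference. It was not called without DSE testis replicate 2 (-0.94, limma adjusted p = 0.160), nor without any 1 of the BMI testis libraries (limma adjusted p from 0.0591 to 0.0782).

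The markers of Leydig cells were set beside INSL3, since in bulk tissue fewer cells of a type and less RNA per cell cannot be told apart. The summed TPM of 8 Leydig markers was 6426 to 10470 in BMI and 7472 to 21409 in DSE, and these ranges overlapped. It was highest in DSE replicate 2, the library with the most INSL3. Of the 7 markers tested, 6 were called higher in the testis than in the other glands, beside 34.5% of all genes. They were led by CYP17A1 and STAR, an enzyme and a cholesterol carrier of steroid synthesis. Within any single other gland at most 1 Leydig marker passed the filter on low values. Most markers thus entered the fit through the testis, where they had to be high. None was called between the breeds in the testis. HSD3B1 was highest in the epididymis, at 156 ± 125 TPM, and CYP19A1, the aromatase, was at or below 0.0965 TPM in every testis library. The median BMI minus DSE over the 7 markers was -0.35, beside 0.10 for all genes.

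INSL3 relative to the Leydig markers was 1.09, 1.91 and 1.63 in BMI and 2.22, 1.98 and 2.56 in DSE, so the breeds did not overlap. The means were 1.54 ± 0.41 and 2.25 ± 0.29 (SD, n = 3 each), a ratio of 1.46 (exact permutation test, two-sided p = 0.10, the smallest possible). Without DSE replicate 2 the remaining DSE ratios, 2.22 and 2.56, still lay above those of BMI. The summed markers of other cell types were read beside these values. No member tested was called between the breeds in the testis, with 0 of 7 for Sertoli cells, 0 of 8 for spermatogonia and spermatocytes and 0 of 8 for spermatids. The sum of 8 Sertoli cell markers was 215 to 235 TPM in BMI and 287 to 649 TPM in DSE, and that of 8 spermatogonia and spermatocyte markers was 512 to 623 TPM in BMI and 180 to 511 TPM in DSE. The sum of 8 spermatid markers was 25576 TPM in DSE replicate 2 and 76447 to 116911 TPM in the other 5 libraries. The part of cell makeup in the INSL3 difference was not tested.

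**Figure D4:**
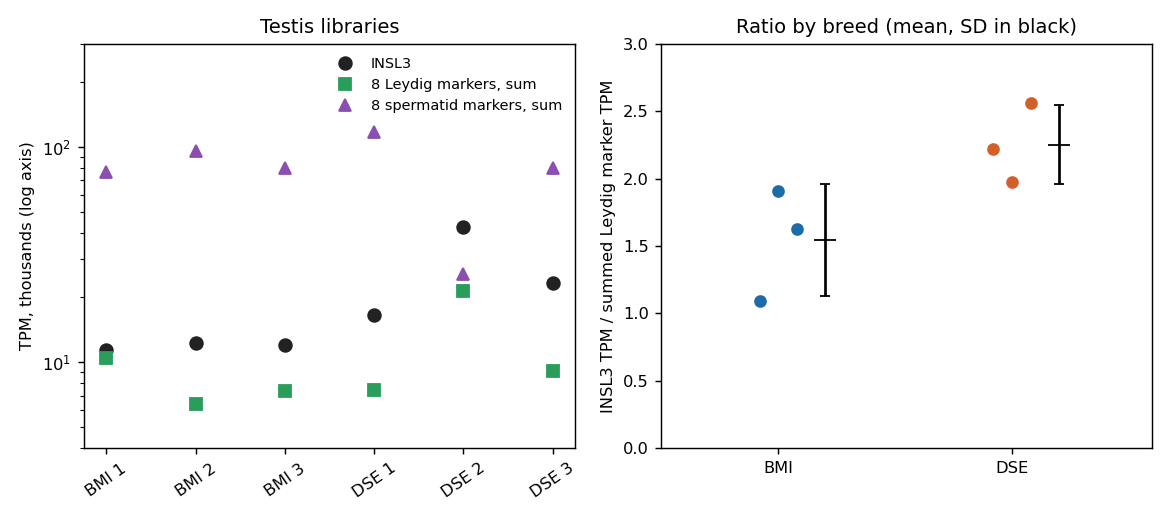
Left, TPM (scaled down on a log axis) of INSL3, of 8 summed Leydig cell markers and of 8 summed spermatid markers in each testis library. Right, INSL3 divided by the summed Leydig markers in each library, with the mean and SD by breed. DSE replicate 2 has the most INSL3 (42359 TPM) and the fewest spermatid transcripts (25576 TPM), and the ratios of the breeds do not overlap.

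Both receptors were near the lower limit of the data in every gland. RXFP2 reached 1 TPM in 6 of 30 libraries, and RXFP1 in 4. RXFP2, the INSL3 receptor, was at 1.33, 1.27 and 1.85 TPM in BMI testis and at 0.810, 0.434 and 0.714 TPM in DSE testis. In the epididymis it was at 0.865, 0.404 and 0.0750 TPM in BMI and at 2.15, 1.07 and 1.16 TPM in DSE. In the testis all BMI values of RXFP2 thus lay above those of DSE, as for 17.0% of the 16414 genes tested there. In the epididymis its DSE values lay above those of BMI, as for 2.77% of 15402 genes. In the bulbourethral gland it ranged from 0.0365 to 0.692 TPM and in the prostate gland from 0.0138 to 0.196 TPM, and in the vesicular gland it was listed at 0 in 4 of 6 libraries.

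The order of RXFP2 by mean log2(TPM + 1) was testis (1.01), epididymis (0.88), bulbourethral gland (0.45), prostate gland (0.12) and vesicular gland (0.02). Over both breeds testis and epididymis did not differ beyond their spread (difference 0.13, 95% interval -0.16 to 0.41). The difference was 0.81 with BMI alone (limma adjusted p = 0.0031) and -0.55 with DSE alone (limma adjusted p = 0.0440), both under the size for a call. In BMI, RXFP2 reached 1 TPM only in the testis, and in DSE only in the epididymis. It thus entered each of these fits through the gland where it had to be high. Epididymis was above bulbourethral gland by 0.44 ± 0.14 (SE; limma adjusted p = 0.0142), under the size needed for a call. Either-direction calls over all genes were 21.3% for that pair of glands. The next step, to the prostate gland, was 0.33 (limma adjusted p = 0.106) and the last was 0.10 (limma adjusted p = 0.673). In the pairs of glands compared here, calls over all genes ran from 7.64% (prostate and bulbourethral glands) to 50.9% (testis and epididymis), with 14.8% between vesicular and prostate glands, 27.7% between vesicular and bulbourethral glands, 36.4% between epididymis and vesicular gland and 49.0% between testis and bulbourethral gland.

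RXFP2 reached 1 TPM in the 3 BMI testis and 3 DSE epididymis libraries and in no others, so it entered the fit over all glands through groups where it was high. The fit of BMI alone held it through the testis, and that of DSE alone through the epididymis. Against the mean of the other glands RXFP2 was higher by 0.64 ± 0.11 in the testis (SE; limma adjusted p = 1.0e-05) and by 0.48 ± 0.11 in the epididymis (limma adjusted p = 0.00056). It was lower by 0.60 in the vesicular gland (limma adjusted p = 3.7e-05) and by 0.47 in the prostate gland (limma adjusted p = 0.00096). Calls over all genes in either direction were 21.6% in the epididymis, 33.0% in the vesicular gland, 16.5% in the prostate gland and 20.4% in the bulbourethral gland. None of the RXFP2 differences reached the size of 1 needed for a call on the log2(TPM + 1) scale, which understates the change of low genes. With a pseudocount of 0.1 they were 1.89, 1.38, -2.17 and -1.31 and all passed. With BMI alone the RXFP2 difference was 1.07 in the testis (limma adjusted p = 4.1e-05) and 0.0649 in the epididymis (limma adjusted p = 0.756), and with DSE alone it was 0.21 in the testis (limma adjusted p = 0.309) and 0.90 in the epididymis (limma adjusted p = 0.00138). The 4 signs over both breeds were kept when libraries were rescaled by the median of ratios.

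RXFP1, the relaxin receptor, had its highest mean over both breeds in the prostate gland (0.773 ± 0.532 TPM, SD, n = 6), close to that in the epididymis (0.757 ± 1.34 TPM). In DSE alone the epididymis was higher, at 1.32 ± 1.85 against 0.303 ± 0.164 TPM (SD, n = 3), and over both breeds prostate gland minus epididymis was 0.20 on the log2 scale, -0.0307 without DSE epididymis replicate 1 and 0.51 without replicate 2 (limma adjusted p = 0.00959). With BMI alone it was 0.94 (limma adjusted p = 0.00309), under the size for a call. With BMI alone, or without DSE epididymis replicate 2, RXFP1 reached 1 TPM only in prostate libraries. It thus entered these fits through the gland where it had to be high. In the prostate gland RXFP1 was at 1.36, 1.10 and 1.27 TPM in BMI and at 0.163, 0.262 and 0.484 TPM in DSE. The highest single value, 3.43 TPM, was in DSE epididymis replicate 2, the epididymis library with the highest sum of smooth muscle markers (25299 TPM, against 2423 to 15371 in the other 5). In the prostate gland these sums were 237 to 2434 TPM in BMI, the breed with more RXFP1, and 1927 to 4187 TPM in DSE. The sum of fibroblast markers in the epididymis was highest in BMI replicate 1 (4327 TPM) and was 1969 TPM in DSE replicate 2. The part of these cells in the RXFP1 levels was not tested. RXFP1 in the epididymis libraries other than DSE replicate 2 ranged from 0 to 0.593 TPM. In the testis RXFP1 was listed at 0 in the 3 DSE libraries and was at 0.0683 to 0.123 TPM in BMI.

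The order of RXFP1 was prostate gland (0.77), epididymis (0.57), vesicular gland (0.40), bulbourethral gland (0.26) and testis (0.07) by mean log2(TPM + 1), and over all libraries no neighbours in it differed beyond their spread (steps of 0.14 to 0.20, limma adjusted p from 0.459 to 0.696). Against the mean of the other glands RXFP1 was lower by 0.43 in the testis (limma adjusted p = 0.0320) and higher by 0.44 ± 0.18 in the prostate gland (SE, limma adjusted p = 0.0427), both under the size for a call. With 1 library left out the limma adjusted p rose to as much as 0.0629 in the testis and 0.112 in the prostate gland. RXFP1 reached 1 TPM in the 3 BMI prostate libraries and 1 DSE epididymis library alone, so it entered this fit through the prostate gland, where it had to be high. In the epididymis the difference was 0.19 (limma adjusted p = 0.358), and its sign turned when libraries were rescaled by the median of ratios (0.00 to 2 decimals, on the negative side) or without DSE replicate 2 (-0.11).

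Between the breeds no receptor was called in any gland where it was tested, nor was any tested in the bulbourethral gland, where 0.0872% of all genes were called. RXFP1 in the prostate gland, with BMI minus DSE of 0.79 ± 0.18 (SE; limma adjusted p = 0.0832), and RXFP2 in the testis (0.59 ± 0.23, limma adjusted p = 0.334) and epididymis (-0.77 ± 0.36, limma adjusted p above 0.99) did not overlap between breeds. Each of these had 1 TPM or more only in the 3 libraries of the higher breed, so passing the filter on low values already required such a difference. In the testis BMI lay above DSE for 17.0% of 16414 genes and 0.585% were called. In the prostate gland BMI lay above DSE for 1.81% of 13507 genes and 0.355% were called, which is 48 genes and became 936 without BMI prostate replicate 2. In the epididymis DSE lay above BMI for 2.77% of 15402 genes and 0 were called by limma, with 294 at an unadjusted p under 0.05. Without DSE epididymis replicate 1 RXFP2 was not tested there, and the remaining DSE values of 1.07 and 1.16 TPM still lay above those of BMI. Exact permutation tests gave p = 0.10 for all 3, the smallest possible. Without any 1 of the BMI prostate libraries RXFP1 no longer passed the filter; without replicate 2, its remaining BMI values still lay above all DSE values.

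RXFP1 also lay higher in BMI in the vesicular gland, at 0.441, 0.846 and 0.510 TPM against 0.0122, 0.0760 and 0.223 TPM in DSE, where 26.1% of 12670 genes did so and 0.821% were called, and the median gene was 0.42 higher in BMI. The sum of 5 fibroblast markers there was 452, 751 and 366 TPM in BMI and 121, 277 and 124 TPM in DSE. These values did not overlap and were highest in the library with the most RXFP1, and 1 of the 5 markers was called. The smooth muscle sum was also highest in that library but overlapped between the breeds (671 to 5204 TPM in BMI, 1406 to 2795 TPM in DSE). The part of these cells in the RXFP1 levels was not tested. In the prostate gland the median gene was 0.39 lower in BMI and DSE lay above BMI for 37.9% of genes, whereas RXFP1 was higher. The breed difference of RXFP2 in the testis minus that in the other glands was 0.86 ± 0.22 (SE; limma adjusted p = 0.0178), under the size for a call. RXFP2 entered this fit, too, through the groups that make the difference. In the testis the germ cell marker sums given above were also higher in BMI for spermatogonia and spermatocytes. DSE replicate 2 had both the lowest RXFP2 and the lowest spermatid sum. DSE replicate 1 had the highest spermatid sum (116911 TPM), yet its RXFP2 (0.810 TPM) lay below that of every BMI library. The part of these cells in the RXFP2 values was not tested. The corresponding values in the epididymis were -0.84 for RXFP2 and -1.15 for RXFP1 (limma adjusted p = 0.173 and 0.344), where 0.151% of all genes were called.

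Several annotated transcripts of each receptor had TPM above 0. In the prostate gland, ENSSSCT00000079886 carried 82.3% ± 15.6 (SD) of RXFP1 in the 3 libraries with at least 1 TPM, all of them BMI, and ENSSSCT00000009716 16.4% ± 17.4. In DSE, ENSSSCT00000072171 was at 0.163 TPM in replicate 1, 0 in replicate 2 and 0.374 TPM in replicate 3, and it was listed at 0 in the 3 BMI libraries. For RXFP2 in the testis, ENSSSCT00000093235 carried 61.6% of the summed TPM, ENSSSCT00000101913 23.0% and ENSSSCT00000105912 12.6%, and the shares of single libraries ran from 0 to 100% for the first of these. In the epididymis ENSSSCT00000105912 carried 45.7% and ENSSSCT00000024513 31.2% of the summed RXFP2 TPM. At levels near 1 TPM these shares were too variable to order.

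**Figure D5:**
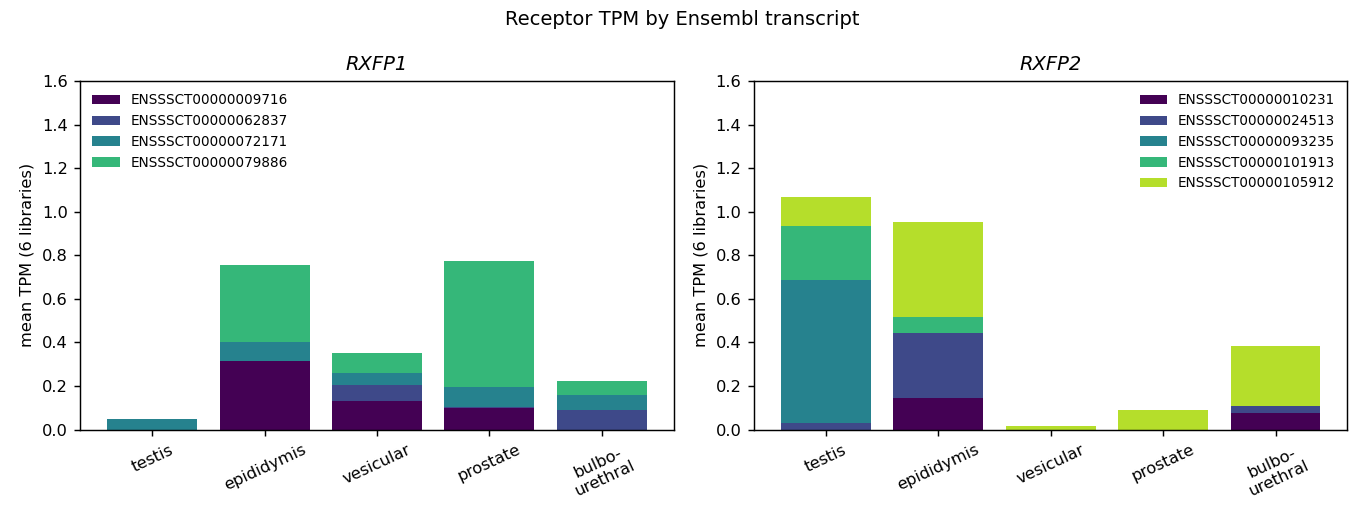
Mean TPM over 6 libraries of each annotated transcript of RXFP1 (left) and RXFP2 (right) by gland, stacked. RXFP1 is highest in the prostate and epididymis, and RXFP2 in the testis and epididymis.

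Long reads added little for the receptors. RXFP1 had a single isoform, PB.18731.1, with 1 read in BMI vesicular gland and 1 in DSE prostate gland. It was 4168 bp long, longer than the annotated transcript of 18 exons it was compared with (3027 bp), had 3 exons, was classed as a fragment that matches part of the annotated junctions from the 5′ side, and ended 60940 bp before the annotated end, with an open reading frame of 119 codons, and the authors left isoforms of this kind out of the annotation used for the short reads. RXFP2 had no full-length read in any of the 10 libraries, which allows up to 6.54 to 13.0 RPM by counting alone. The bases after the end of the RXFP1 isoform are given because they were 60% A, with A in capitals; 29.8% of all isoforms had at least this share.
After the end of PB.18731.1: gtgggAAAAtAAAAttAAAA

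The other genes of the family were mostly too low to test. Of 10 other ligands and receptors listed, 5 were found and 3 passed the filter on low values, and all 3 were called higher in the testis, where 34.5% of all genes were and the median of all genes was 0.31. INSL6, a relative of INSL3 expressed in germ cells, was at 34.4 ± 12.1 TPM (SD, n = 6) in the testis, higher by 4.83 ± 0.15 (SE). The relaxin gene, matched by position to RefSeq, was at 16.0 ± 19.6 TPM, and RLN3 was at 2.93 ± 1.51 TPM, higher by 1.23 ± 0.23 (limma adjusted p at most 4.9e-05 for the 3). None of these 3 was called between the breeds in the testis, where 0.585% of all genes were. Within the libraries of a single other gland, RLN3 alone passed the filter, in the epididymis and the vesicular gland, so the relaxin gene and INSL6 entered the fit through the testis, where they had to be high. The receptors RXFP3 and RXFP4 did not pass the filter, and their highest gland means were 0.357 TPM in the vesicular gland and 0.493 TPM in the bulbourethral gland.

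Factors that regulate INSL3 were called higher in the testis for 5 of 8, with a median difference of 1.51, beside 34.5% and 0.31 for all genes. These were the luteinizing hormone receptor LHCGR (93.4 ± 56.1 TPM in the testis), NR5A1 (69.3 ± 22.6 TPM), GATA4 (35.2 ± 10.1 TPM), GATA6 and NR0B1. Within each other gland 4 of the 8 passed the filter on low values, against 8 in the testis. Some of the called genes may thus have entered the fit through the testis, where they had to be high. NR4A1, the most abundant of the list over the 30 libraries, was at 27.6 ± 15.6 TPM in the testis and was not called in any gland. None of the 8 was called between the breeds in the testis. Of the 6 related receptors listed, LHCGR, FSHR and TSHR were called higher in the testis, and LGR4, the most abundant, was called lower there and higher in the prostate gland (71.5 ± 21.3 TPM). In either direction the testis calls of this list ran from 2 to 4 under the processing alternatives. The filter was passed by 5 of them in the testis and by 1 or 2 in each other gland.

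Enzymes that cut and trim prohormones were not higher in the testis. Of 6 tested, 0 were called higher and 2 lower, FURIN and CPE, and 4 were not called. CPE, which trims peptide ends, was at 558 ± 438 TPM in the epididymis, higher there by 4.86 ± 0.37 (SE; limma adjusted p = 2.0e-10). Of 16 G protein and adenylyl cyclase genes, 3 were called higher in the testis, among them the soluble cyclase ADCY10 of germ cells, and 4 lower. In either direction the testis calls of this list ran from 3 to 8 under the processing alternatives. GNAS, the stimulatory G protein and the most abundant, was called higher in the epididymis (1258 ± 192 TPM). Of 14 genes of cAMP effectors and breakdown, 8 were called higher in the testis and 2 lower, with a median of 1.11, beside 34.5% higher, 12.7% lower and a median of 0.31 for all genes. The germ cell markers were also higher there, for 8 of 8 of spermatids (median 10.58) and 7 of 8 of spermatogonia and spermatocytes (median 4.91). No spermatogonia and spermatocyte marker passed the filter within a single other gland, so these entered the fit through the testis, where they had to be high. Of the spermatid markers, 5 passed it in the epididymis and at most 1 in any accessory gland. The part of germ cells in the calls of the cAMP genes was not tested. PRKAR1A, the most abundant of the cAMP list, was at 157 ± 9.84 TPM in the testis and was not called.

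Genes of nitric oxide signalling and matrix, on which relaxin is known to act, were mostly called lower in the testis. There 9 of 14 were called lower and 2 higher, NOS3 and TIMP2, with a median of -1.50. In the epididymis 6 were called higher and 0 lower (3 called with Ensembl transcripts only, where the testis had 7 in place of 11), among them COL1A1 (952 ± 1252 TPM), TIMP1 and GUCY1B1, and in the bulbourethral gland 5 were called higher (3 to 5 with 1 library left out). Smooth muscle markers were called lower in the testis for 7 of 7 and higher in the epididymis for 7 of 7, and lower in the bulbourethral gland for 6 of 7. Fibroblast markers were called lower in the testis for 4 of 5, higher in the epididymis for 4 of 5 and higher in the bulbourethral gland for 2 of 5, and the part of these cells was not tested. In the prostate gland, VEGFA was called higher and TIMP2 lower and the other 12 were not called. The shares of all genes called higher and lower were 15.1% and 6.55% in the epididymis, 8.44% and 12.0% in the bulbourethral gland, 3.7% and 12.8% in the prostate gland and 12.7% lower in the testis. In the vesicular gland 30.0% of genes were called lower, and 3 of the 14.

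The genes most like INSL3 over the 30 libraries, by Pearson r of log2(TPM + 1) among 13876 genes, were CYP17A1 (0.998), FATE1 (0.998), GATA4 (0.997), CYP11A1 (0.997) and SERPINA5 (0.996). These points share the contrast of testis with the other glands, and 1542 genes had r above 0.9. For RXFP2 the highest were HDDC2 (0.869), HSF4 (0.857), CES1 (0.855), NCBP2AS2 (0.853) and IFT46 (0.852), and for RXFP1 IL25 (0.763), SGCD (0.759), KANK4 (0.748), CAMKK1 (0.734) and PALM (0.726). These values are descriptions over libraries that share glands and breeds.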

How the data were processed

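Per the labels and the study's methods, short reads were trimmed, aligned to Sscrofa11.1 with STAR 2.7.10a and quantified with Salmon 1.9.0 on an annotation that joined Ensembl transcripts with Iso-seq isoforms, and the authors deposited TPM per transcript. RNA selection is given as rRNA depletion in the labels and as poly-T beads in the methods. The authors deposited full-length read counts per isoform and library, and the percent of A in the bases after each isoform end. Small RNA values were not used.

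Here TPM were summed by gene name. A gene entered a fit when 3 or more of its libraries reached 1 TPM, and was tested on log2(TPM + 1) with limma 3.58.1 (R 4.3.3; Benjamini-Hochberg over all genes). Glands were compared in 1 fit of the 10 breed and gland groups, and breeds within each gland. On simulated data with 200 changed genes the tests were checked. Iso-seq counts were given with Wilson 95% intervals and a floor of 3 counts. Genes named were the members, the most abundant gene of each list, the called family genes and the 5 most alike genes; other list genes were named after their values were seen. The members and lists were chosen with earlier results of these data known, and 11 list genes without a symbol were matched to RefSeq by position after the files were seen. The alternatives are given in the closing section.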

Additional observations from a re-analysis of the deposited data

Results flagged for a closer look

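The breed difference of INSL3 in the testis differed from that in the other 4 glands, by -1.31 ± 0.34 (SE; limma adjusted p = 0.0246). The other glands hold almost no INSL3. The value without DSE testis replicate 2 was -0.94 (limma adjusted p = 0.160).

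The breed difference of RXFP2 in the testis differed from that in the other 4 glands, by 0.86 ± 0.22 (SE, limma adjusted p = 0.0178). All 3 BMI libraries lay above all 3 DSE libraries in the testis, as for 17.0% of genes there. The reverse held in the epididymis, as for 2.77% of genes there. All values lay at or below 2.15 TPM, and RXFP2 passed the filter on low values only through these 2 groups, BMI testis and DSE epididymis.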

How the results depend on the processing

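Of 324 log2 values of the members across the alternatives other than leaving out a library, 300 kept their direction and their side of the threshold. For those that did not, the cause was not tested. INSL3 in the testis between breeds was called with 1 fit of all glands (-1.09, limma adjusted p = 0.0288), and its testis difference of differences was not called with a pseudocount of 0.1 (-1.73) or Ensembl transcripts only (-1.24). With a pseudocount of 0.1, the RXFP1 differences passed in the testis (-1.44) and prostate gland (1.495), and those of RXFP2 in the testis (1.89), epididymis (1.38), vesicular gland (-2.17) and prostate gland (-1.31) and between bulbourethral and prostate glands (1.21). RXFP2 in the testis passed with BMI alone (1.07), where it entered the fit through the testis, and was 0.21 with DSE alone. Signs that turned were those of uncalled values. For INSL3, epididymis minus prostate gland was -0.21 with DSE alone. For RXFP1, the epididymis was -0.0047 with size factors and -0.38 with BMI alone, the vesicular gland 0.23 with a pseudocount of 0.1, 0.15 with size factors and 0.17 with BMI alone, epididymis minus vesicular gland -0.0645, -0.12 and -0.44 in the same order, and the testis difference of differences 0.0701 with a pseudocount of 0.1. For RXFP2, the bulbourethral gland was 0.21 with a pseudocount of 0.1 and 0.0755 with DSE alone, and testis minus epididymis was -0.55 with DSE alone.

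Counts of genes called moved more. Against the other glands (testis 9412, epididymis 4307, vesicular 6562, prostate 3285, bulbourethral 4062), Ensembl transcripts only gave 5565, 2592, 3489, 1707 and 2325 in that order, a pseudocount of 0.1 gave 6526, 10449, 5937 and 6790 from the epididymis on, and size factors gave 3845 in the vesicular gland. Between the breeds (testis 96, epididymis 0, vesicular 104, prostate 48, bulbourethral 12), no filter gave 22 in the testis, 3 in the vesicular, 90 in the prostate and 0 in the bulbourethral gland, Ensembl transcripts only 13, 13, 18 and 1, and 1 fit of all glands 945 in the testis, 140 in the epididymis, 124 in the prostate and 56 in the bulbourethral gland. A pseudocount of 0.1 gave 8 in the epididymis, 66 in the vesicular and 29 in the bulbourethral gland, size factors 2 in the epididymis, 21 in the prostate and 24 in the bulbourethral gland, and limma with trend and robust settings 215 in the vesicular and 3 in the bulbourethral gland.

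The replicate numbers did not pair the libraries: of 15 pairs of breeds with the same gland and number, 4 had deviations correlated above 0.1 (median -0.0421), of 60 pairs of glands with the same breed and number 20 did (median 0.0471, highest 0.39), and 6 of 30 libraries correlated best with their own number. With the replicate block, calls between the breeds were 227 in the testis, 665 in the vesicular gland, 0 in the prostate gland and 2 in the bulbourethral gland. The INSL3 difference in the testis stayed at -1.09 with the block (limma adjusted p = 0.186), and the block changed no call of a member.

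With 1 library left out at a time, 1244 of 1275 member values kept direction and side. Leaving out a library also gained calls for the difference of differences in the epididymis. That of INSL3 (1.36, limma adjusted p = 0.162) was called without BMI epididymis replicate 1 (1.73, limma adjusted p = 0.0195) or DSE epididymis replicate 3 (1.66, limma adjusted p = 0.0259), that of RXFP1 without DSE epididymis replicate 1 (-1.61, limma adjusted p = 0.0194) and that of RXFP2 without BMI epididymis replicate 1 (-1.04, limma adjusted p = 0.0363). The difference of differences of INSL3 ran from -1.62 to -0.94 in the testis, 1.05 to 1.73 in the epididymis, -0.09997 to 0.0714 in the vesicular gland and -0.34 to 0.0337 in the prostate gland. For RXFP1 the epididymis ran from -0.11 to 0.42, the vesicular gland from -0.0719 to 0.0623, and the difference of differences from -0.27 to 1.9e-05 in the testis and from -1.61 to -0.54 in the epididymis. Prostate gland minus epididymis ran from -0.0307 to 0.51 and epididymis minus vesicular gland from -0.14 to 0.40, with the ends of these RXFP1 ranges in the epididymis set by leaving out DSE epididymis replicate 1 or 2. The RXFP2 difference of differences in the epididymis ran from -1.04 to -0.64. Breed calls ran from 3 to 244 in the testis (244 without DSE replicate 2), 37 to 349 in the vesicular gland, 0 to 936 in the prostate gland (936 without BMI replicate 2) and 0 to 3 in the bulbourethral gland. Of 525 pathway list counts under the other alternatives, 475 stayed within 1.5 times. With 1 library left out the nitric oxide and matrix count ran from 3 to 5 in the bulbourethral gland and 1 to 2 in the prostate gland. TPM keep no depth and the read totals of the RNA-seq libraries were not used here, and values of the receptors near 1 TPM limit every statement on them.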
